A study of Homo sapiens with 6 samples.

Results

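The tumour necrosis factor (TNF) superfamily is a set of membrane and secreted ligands and their receptors. Members were chosen by gene symbol, as every gene named TNFSF or TNFRSF with a number together with FAS, FASLG, CD27, CD40, CD40LG, CD70, LTA, LTB, LTBR, NGFR and TNF. This gave 43 of the 60662 genes in the count table, 17 ligands and 26 receptors. Of these, 31 had 10 or more reads in 3 libraries, 10 ligands and 21 receptors. All 6 libraries came from DU-145, an established line of human prostate cancer. The cells stably carried a tetracycline-inducible hairpin RNA against MUC1, a transmembrane mucin. The DOX-negative group (3 cultures) was kept in vehicle for 7 days and the DOX-positive group (3 cultures) in doxycycline (DOX), which induces the hairpin, for the same time. Both groups were then stimulated with 10 ng/ml interferon-gamma, written IFN-gamma here, over 24 hours. Every comparison is therefore between IFN-gamma-exposed cultures. The action of DOX itself and that of the hairpin cannot be told apart, since no DOX-treated culture without the hairpin was analysed here. The labels do not say whether the line is 1 clone or a pool.

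TNF family ligands are trimers that bind cell-surface receptors with cysteine-rich repeats. Receptors with a cytoplasmic death domain, such as FAS and the TRAIL receptors, can recruit FADD and caspase-8 and start apoptosis, or signal through TRADD and RIPK1. Receptors without one bind TRAF adaptors and activate NF-kappaB and MAP kinases, and decoy receptors bind ligand without passing on a death signal. Several ligands, TRAIL and BAFF among them, are known to be inducible by interferons in many cell types.

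Library totals lay between 87739734 and 150921436 reads. MUC1, the target of the hairpin, read 20.4, 21.8 and 22.2 CPM (reads scaled to library depth) without DOX and 1.53, 1.31 and 1.32 CPM with it, so it was low in the libraries labelled for it. The epithelial markers KRT8, KRT18, KRT19, EPCAM and CDH1 were present in all 6 libraries, and all 5 rose, with a summed level of 813.1 to 863.6 CPM in DOX-negative and 2261 to 2350 CPM in DOX-positive libraries. The prostate luminal marker KLK3 was at 0 reads in all 6 libraries. Of 8 leukocyte markers, 7 lay at or below 0.0765 CPM in every library and MS4A1 and CD3E were at 0. The exception, CD14, fell from 1.02 to 0.286 CPM. The summed level of 8 leukocyte genes was 1.06 to 1.17 CPM in DOX-negative and 0.318 to 0.444 CPM in DOX-positive libraries. Endothelial markers summed to 0.303 to 0.436 CPM over all 6 libraries, and fibroblast markers, mostly COL1A1, to 6.18 to 7.38 CPM and then 4.64 to 4.98 CPM. The part of these markers in the changes of the family was not tested. In bulk RNA, fewer cells with a transcript and less of it per cell cannot be told apart.

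Levels of different genes were compared as RPKM, which is CPM divided by gene length in kilobases. At 1 RPKM or more stood 6 ligands and 12 receptors in DOX-negative cells, and the same numbers in DOX-positive cells. The receptors summed to 252.3 ± 5.03 RPKM in DOX-negative and 291.9 ± 3.25 RPKM in DOX-positive cells (SD, n = 3 each). The ligands summed to 46.7 ± 1.49 and 34.9 ± 0.989 RPKM. In DOX-negative cells the receptor order ran from TNFRSF1A at 62.8 RPKM through TNFRSF21 (35.9), TNFRSF10B (31.4), TNFRSF12A (28.3), TNFRSF10A (20.5), TNFRSF10D (19.5), LTBR (18.8) and CD40 (16.1) to TNFRSF1B (6.28) and FAS (5.34). Among these neighbours the libraries of TNFRSF10B and TNFRSF12A overlapped, so their order was not fixed. In DOX-positive cells TNFRSF12A stood next below TNFRSF1A at 45.5 RPKM, with libraries that overlapped those of TNFRSF21 at 44.0 RPKM. The libraries of TNFRSF1B and FAS also overlapped there, at 6.57 and 6.36 RPKM. The 6 highest receptors of DOX-negative cells made up 78.6% ± 0.184 of the receptor sum there and 82.2% ± 0.241 in DOX-positive cells.

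**Figure D1:**
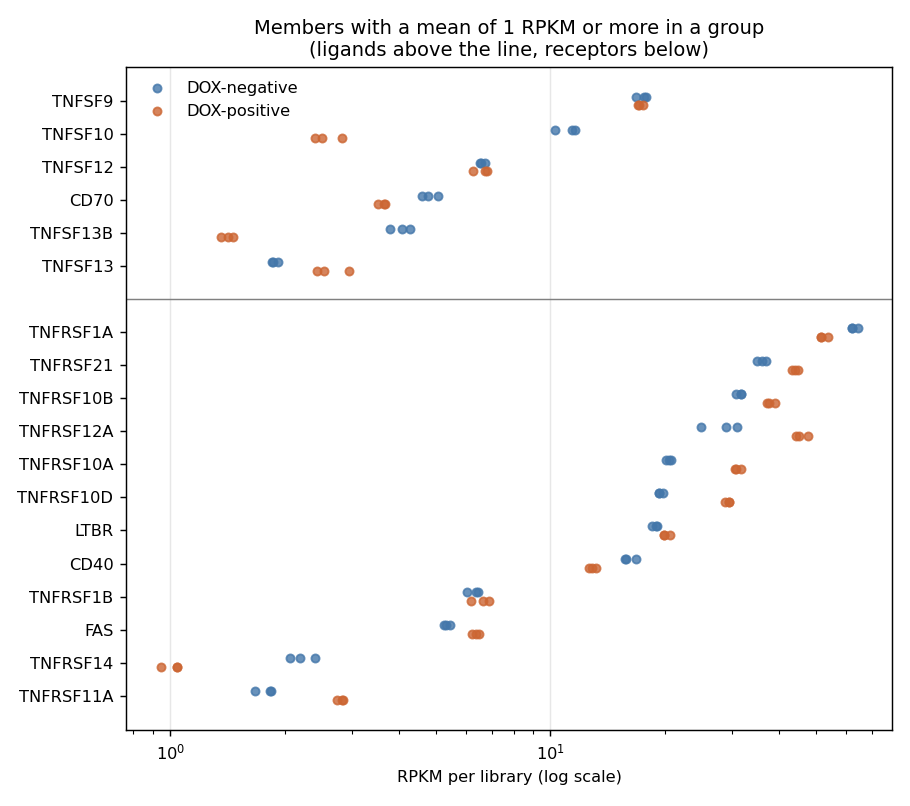
Level of each member with a mean of 1 RPKM or more in a group, 1 point per library on a log axis in RPKM (blue DOX-negative, orange DOX-positive), with ligands above the line and receptors below. TNFSF10 and TNFSF13B show the widest gaps between the groups, and TNFSF9, TNFSF12 and TNFRSF1B overlap.

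Differences between the groups were tested across all genes with edgeR's quasi-likelihood test and a Benjamini-Hochberg adjusted p under 0.05. Of the 43 members, 30 had enough reads to be tested. In that test 22 of them (73.3%) changed, 10 higher and 12 lower in DOX-positive cells. Of all 24695 genes tested, 56.5% changed, 27.6% higher and 28.9% lower. Among the members 7 fell at least 2-fold and 0 rose at least 2-fold, beside 9.38% and 3.56% of all genes. The groups did not overlap for 23 members, against 62.4% of all genes. The median log2 fold change was -0.089 for the members tested and -0.042 for all genes. A member that passed the read filter only because 1 group was high had to differ, so these counts are a description. Scaling by library totals alone shifted the median gene by -0.14 (log2), and the members then split into 9 higher and 15 lower. The split of all genes then went from 6825 higher and 7132 lower to 4689 and 9579.

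**Figure D2:**
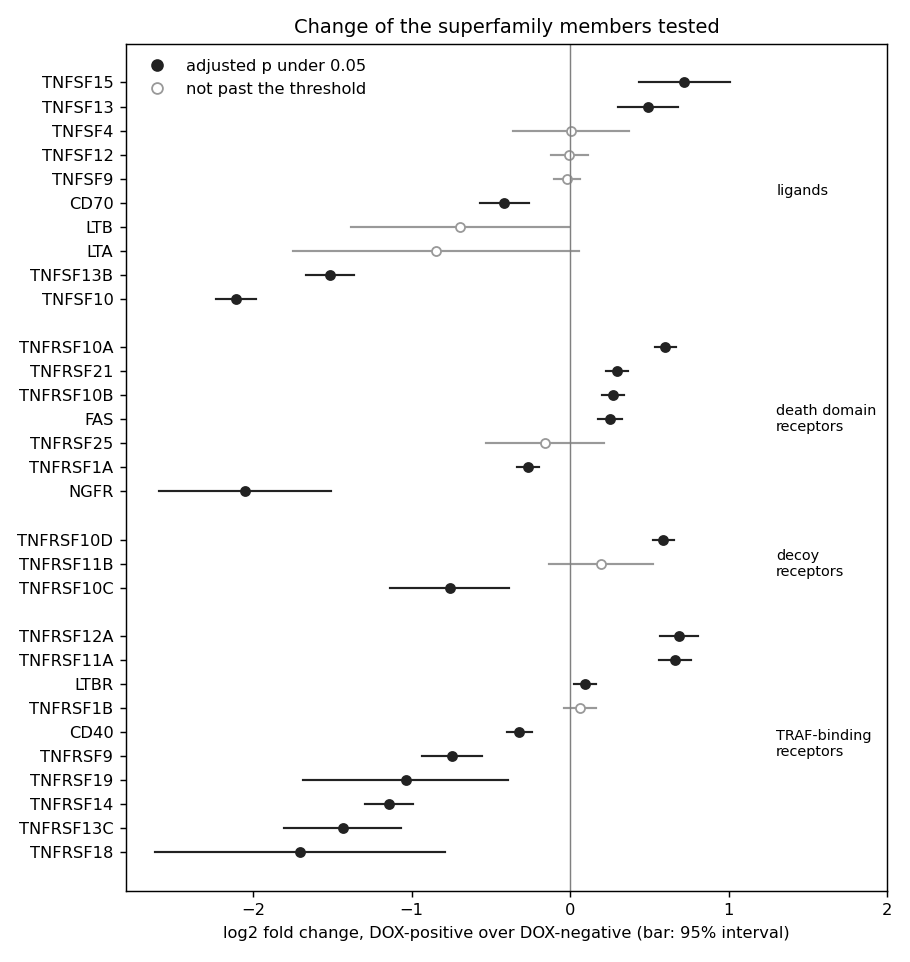
Log2 fold change of DOX-positive over DOX-negative cells for the 30 members tested, with 95% intervals, grouped by role. Filled points passed an edgeR adjusted p of 0.05. The falls reach -2.11 (TNFSF10) and the rises 0.72 (TNFSF15).

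Among the ligands, 3 of 10 tested fell, 2 rose and 5 did not pass (6 and 2 with library totals alone). Of all genes tested, 28.9% fell and 27.6% rose. Whether the ligands or any receptor type below differed from all genes was not tested. TNFSF10 (ENSG00000121858.11, chromosome 3, 172505508 to 172523507 on the minus strand, GRCh38) encodes TRAIL, which triggers apoptosis through TNFRSF10A and TNFRSF10B. It read 11.4, 10.3 and 11.6 RPKM in DOX-negative and 2.51, 2.41 and 2.82 RPKM in DOX-positive libraries. All DOX-positive values lay well below all DOX-negative values, a 4.31-fold fall (log2 fold change -2.11, SE 0.060, edgeR adjusted p = 4.11e-14). TRAIL made up 23.7% ± 0.821 of the ligand sum in DOX-negative and 7.39% ± 0.403 in DOX-positive cells.

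TNFSF13B (ENSG00000102524.11, chromosome 13, 108251240 to 108308484) encodes BAFF, a survival factor for B cells. It read 4.27, 3.78 and 4.07 RPKM without DOX and 1.36, 1.42 and 1.46 RPKM with it. The groups did not overlap, and the level fell 2.86-fold (log2 fold change -1.52, SE 0.071, edgeR adjusted p = 1.85e-11). CD70, the ligand of CD27, went from 5.06, 4.76 and 4.61 to 3.64, 3.67 and 3.51 RPKM. That fall of 1.33-fold was smaller but also without overlap (edgeR adjusted p = 0.000139).

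The ligands that rose were TNFSF13 and TNFSF15. TNFSF13, which encodes APRIL, a relative of BAFF, read 1.86, 1.92 and 1.86 RPKM and then 2.44, 2.54 and 2.95 RPKM, a 1.41-fold rise (log2 fold change 0.49, SE 0.090, edgeR adjusted p = 0.000191). A read-through gene, TNFSF12-TNFSF13, covers 55.5% of its exon bases on the same strand and is listed at 0 reads in all 6 libraries, so the TNFSF13 value depends on how the authors' counting assigned shared reads. TNFSF15, whose product TL1A is a ligand of TNFRSF25, read 0.216, 0.200 and 0.211 RPKM and then 0.377, 0.293 and 0.363 RPKM. It rose 1.65-fold from this low level (log2 fold change 0.72, SE 0.13, edgeR adjusted p = 0.000226).

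TNFSF9, the ligand of the co-stimulatory receptor TNFRSF9, had the highest level of the ligands, at 17.7, 16.8 and 17.8 RPKM in DOX-negative and 17.1, 17.0 and 17.6 RPKM in DOX-positive libraries. The groups overlapped, with a log2 fold change of -0.019 and a 95% interval from -0.10 to 0.061 (edgeR adjusted p = 0.691). With library totals alone it was called lower, at -0.16. TNFSF12, which encodes TWEAK, stood at 6.61 ± 0.112 and 6.59 ± 0.307 RPKM (log2 fold change -0.0061, interval -0.12 to 0.11), and was also called lower, at -0.15, with library totals alone. A read-through gene covers 29.4% of its exon bases on the same strand. TNFSF4, the ligand of TNFRSF4, lay between 0.218 and 0.263 RPKM in all 6 libraries. The lymphotoxin genes were near the limit of the data. LTA had 12 to 47 reads per library with a log2 fold change of -0.84 (interval -1.74 to 0.055, edgeR adjusted p = 0.102), and LTB had 17 to 46 reads with -0.70 (interval -1.38 to -0.0098, adjusted p = 0.0785). The groups of LTB did not overlap, while those of LTA did. Without DOX-negative replicate 1, LTA passed at -1.10 (adjusted p = 0.0378), within 0.0378 to 0.491 over its alternatives. LTB passed with library totals alone at -0.84 (adjusted p = 0.0372), within 0.0372 to 0.339 over its alternatives.

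The stretches before the start sites of 6 members are shown because IFN-gamma acts through known promoter elements. They were picked after their values were seen, to show 4 members that fell (TNFSF10, TNFSF13B, TNFRSF14 and TNFRSF9), 1 that rose (TNFSF15) and 1 that did not pass (TNFSF9). The GAS element, through which IFN-gamma acts, was searched as TTCNNNGAA. The interferon-stimulated response element (ISRE) was searched as GAAA, any 2 bases and GAAA, AP-1 as TGANTCA, and the NF-kappaB site by its usual consensus, all on both strands within 250 bases before the start. RefSeq (GRCh38.p14) gave start sites for 28 of the 43 members, in 37 windows. Bases that GENCODE 29 places in an exon of a coding gene are left out, capitals mark motif matches, and each line runs 5′ to 3′ on the gene's strand.
TNFSF10: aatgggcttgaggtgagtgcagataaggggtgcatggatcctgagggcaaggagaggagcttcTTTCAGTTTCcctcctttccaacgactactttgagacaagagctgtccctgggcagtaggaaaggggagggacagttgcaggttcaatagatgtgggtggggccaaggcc
TNFSF13B: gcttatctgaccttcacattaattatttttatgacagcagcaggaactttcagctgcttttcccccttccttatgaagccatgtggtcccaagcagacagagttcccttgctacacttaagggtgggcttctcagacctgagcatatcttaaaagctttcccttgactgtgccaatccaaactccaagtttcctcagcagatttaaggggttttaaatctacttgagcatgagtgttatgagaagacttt
TNFRSF14: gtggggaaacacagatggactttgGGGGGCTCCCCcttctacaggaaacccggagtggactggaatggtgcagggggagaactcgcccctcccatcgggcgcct
TNFSF9: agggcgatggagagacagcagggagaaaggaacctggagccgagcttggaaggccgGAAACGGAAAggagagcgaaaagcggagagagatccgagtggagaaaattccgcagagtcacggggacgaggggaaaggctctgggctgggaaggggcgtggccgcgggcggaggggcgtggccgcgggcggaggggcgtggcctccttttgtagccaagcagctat
TNFRSF9: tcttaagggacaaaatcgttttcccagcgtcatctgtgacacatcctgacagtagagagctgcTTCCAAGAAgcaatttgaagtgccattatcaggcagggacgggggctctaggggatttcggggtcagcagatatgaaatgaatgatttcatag
TNFSF15: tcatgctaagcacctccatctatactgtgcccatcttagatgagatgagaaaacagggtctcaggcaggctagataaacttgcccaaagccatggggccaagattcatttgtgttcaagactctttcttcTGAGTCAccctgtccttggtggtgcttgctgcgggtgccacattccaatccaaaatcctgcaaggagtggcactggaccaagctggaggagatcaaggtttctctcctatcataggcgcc
They lie at chr3:172523508-172523680 (minus strand), chr13:108269379-108269628 (plus), chr1:2556262-2556365 (plus), chr19:6530776-6530998 (plus), chr1:7940934-7941089 (minus) and chr9:114792531-114792780 (minus). Those of TNFSF13B, TNFRSF14, TNFRSF9 and TNFSF15 fall inside the gene's GENCODE span, because GENCODE also gives starts further upstream, and the start in use was not measured. The antisense gene TNFRSF14-AS1 has an exon over the TNFRSF14 stretch.

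The ISRE letters stood 187 bases before the start of TNFSF10, which fell 4.31-fold, and 194 bases before that of TNFSF9, which did not pass. A further window of TNFSF13B held them 71 bases before its start, inside exon sequence not shown. ISRE letters also stood in windows of TNFRSF1B and FASLG, 5 members in all. They stood in 13.5% of the 37 member windows and in 3.02% of all 35116 windows of this length. GAS letters occurred in windows of 4 members (LTA, LTB, TNFRSF9 and TNFSF11), or 16.2% of member windows, and in 6.57% of all windows. The NF-kappaB consensus occurred in windows of 9 members, or 29.7% of member windows, and in 6.88% of all windows. In TNFRSF14 its capitals are 2 overlapping matches, and in TNFRSF9 matches to it and to AP-1 lie in exon sequence not shown. AP-1 letters occurred in windows of 5 members, TNFSF15 among them, or 16.2% of member windows, and in 6.57% of all windows. A match says only that the letters are there. Windows of 1 gene can overlap and hold the same match, and the difference between member windows and all windows was not tested. Members with a match were found among those that fell, rose and did not pass.

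All 7 receptors with a death domain were tested, and 4 rose and 2 fell, beside 27.6% and 28.9% of all genes. The remaining 1 did not pass. TNFRSF10A (ENSG00000104689.10, chromosome 8, 23190452 to 23225126), a death receptor for TRAIL, had the largest rise of the group. It read 20.5, 20.1 and 20.8 RPKM in DOX-negative and 30.8, 30.6 and 31.8 RPKM in DOX-positive libraries, which did not overlap. This was a 1.52-fold rise (log2 fold change 0.60, SE 0.031, edgeR adjusted p = 6.84e-11). Genes on the other strand cover 16.6% of its exon bases, and 1 of them, TNFRSF10A-AS1, rose 1.5-fold as well. The strand setting of the counting is not given in the sources used here, so reads of the 2 genes may be mixed.

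TNFRSF10B, the other TRAIL death receptor, read 31.7, 31.7 and 30.8 RPKM and then 38.8, 37.2 and 37.6 RPKM, a 1.21-fold rise without overlap (edgeR adjusted p = 2.08e-06). TNFRSF21, also called death receptor 6, rose 1.23-fold, from 35.9 ± 0.943 to 44.0 ± 0.819 RPKM (edgeR adjusted p = 1.06e-06). FAS, the receptor of FASLG, rose 1.19-fold, from 5.30, 5.25 and 5.46 RPKM to 6.35, 6.22 and 6.50 RPKM (edgeR adjusted p = 1.18e-05). These rises were each smaller than that of TNFRSF10A, with no overlap between groups.

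TNFRSF1A, the main receptor for TNF and the most abundant member of either group, went the other way. It read 64.2, 62.0 and 62.0 RPKM in DOX-negative and 51.4, 51.5 and 53.6 RPKM in DOX-positive libraries, a 1.2-fold fall without overlap (log2 fold change -0.27, SE 0.033, edgeR adjusted p = 2.7e-06). NGFR, the low-affinity neurotrophin receptor, fell 4.15-fold, but from a low level: it had 93, 118 and 65 reads in DOX-negative and 17, 26 and 25 reads in DOX-positive libraries (log2 fold change -2.05, SE 0.26, edgeR adjusted p = 3.04e-06). Other-strand genes cover 27.1% of its exon bases. TNFRSF25, the receptor of TL1A, read 0.342 to 0.578 RPKM in DOX-negative and 0.354 to 0.441 RPKM in DOX-positive libraries and did not pass (log2 fold change -0.16, interval -0.53 to 0.22). Its highest value was DOX-negative replicate 2, without which the log2 fold change was 0.073.

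Of 4 decoy receptors, 1 rose and 1 fell, beside 27.6% and 28.9% of all genes. Another 1 did not pass and 1 was not tested. TNFRSF10D (ENSG00000173530.6, chromosome 8, 23135588 to 23164030), a TRAIL receptor with a truncated death domain, rose 1.5-fold, from 19.2, 19.3 and 19.8 RPKM to 28.8, 29.4 and 29.4 RPKM (log2 fold change 0.59, SE 0.031, edgeR adjusted p = 7.34e-11). Its size of change was close to that of TNFRSF10A, 0.60. TNFRSF10C, a TRAIL receptor anchored to the membrane by a lipid, fell 1.69-fold, from 0.738, 0.788 and 0.602 RPKM to 0.437, 0.463 and 0.357 RPKM (edgeR adjusted p = 0.00158). Other genes cover 39.3% of its exon bases on the same strand, which makes this value uncertain. TNFRSF11B, which encodes osteoprotegerin, a soluble decoy for RANKL, read 0.470 to 0.609 RPKM and 0.573 to 0.687 RPKM and did not pass (log2 fold change 0.20, interval -0.13 to 0.52). TNFRSF6B, a soluble decoy for FASLG, was listed at 0 reads in all 6 libraries. All of its exon bases lie within RTEL1-TNFRSF6B, a read-through gene with 99 to 192 reads per library, so its 0 says nothing about its level.

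The TRAIL receptors sit in 1 cluster on chromosome 8 and can be read together per length. The death receptors TNFRSF10A and TNFRSF10B summed to 52.2, 51.8 and 51.6 RPKM in DOX-negative and 69.6, 67.8 and 69.4 RPKM in DOX-positive libraries. The decoys TNFRSF10C and TNFRSF10D summed to 19.98, 20.1 and 20.4 RPKM and then 29.2, 29.9 and 29.8 RPKM. Both sums were higher in every DOX-positive library. The decoys made up 27.7%, 28.0% and 28.3% of the 4 TRAIL receptors in DOX-negative and 29.6%, 30.6% and 30.0% in DOX-positive libraries. The share thus moved by little while the ligand TRAIL fell 4.31-fold. At most 1.0% of the 50-base stretches in the transcripts of these 4 receptors occurred in transcripts of other, non-overlapping genes.

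**Figure D3:**
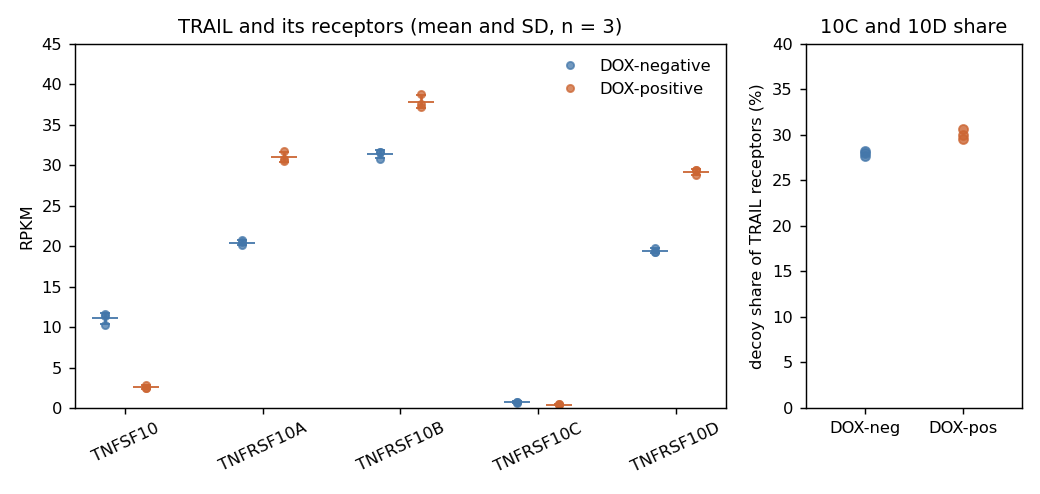
Left, RPKM of TRAIL (TNFSF10) and its 4 receptors, with points for libraries and bars for the mean and SD of 3. Right, the share of TNFRSF10C and TNFRSF10D in the summed RPKM of the 4 receptors, 27.7% to 28.3% in DOX-negative and 29.6% to 30.6% in DOX-positive libraries.

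Of 15 TRAF-binding receptors without a death domain, 10 were tested, and 3 rose and 6 fell, beside 27.6% and 28.9% of all genes. The remaining 1 tested did not pass. TNFRSF12A (ENSG00000006327.13, chromosome 16, 3018445 to 3022383), the receptor for TWEAK, rose 1.61-fold. It read 30.9, 29.01 and 24.8 RPKM in DOX-negative and 47.5, 44.9 and 44.1 RPKM in DOX-positive libraries, without overlap but with 1 low library, DOX-negative replicate 3 (log2 fold change 0.69, SE 0.057, edgeR adjusted p = 2.5e-08). TNFRSF11A, which encodes RANK, the receptor of RANKL, rose 1.58-fold, from 1.83, 1.67 and 1.84 RPKM to 2.84, 2.74 and 2.85 RPKM (edgeR adjusted p = 4.12e-09). LTBR, the lymphotoxin-beta receptor, read 19.0, 18.5 and 19.0 RPKM and then 19.9, 19.9 and 20.6 RPKM (log2 fold change 0.095, SE 0.033, edgeR adjusted p = 0.0207). That call was not stable: the log2 fold change was -0.049 with library totals alone, and the adjusted p reached 0.0761 when DOX-positive replicate 3 was left out. Across all alternatives the adjusted p of LTBR ran from 0.0055 to 0.149.

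The receptors that fell included TNFRSF14 and TNFRSF9. TNFRSF14 (ENSG00000157873.17, chromosome 1, 2555639 to 2565382), also called HVEM, binds LIGHT and the lymphocyte inhibitory receptor BTLA. It read 2.40, 2.19 and 2.06 RPKM in DOX-negative and 1.04, 0.945 and 1.04 RPKM in DOX-positive libraries, a 2.21-fold fall without overlap (log2 fold change -1.14, SE 0.071, edgeR adjusted p = 5.8e-10). TNFRSF14-AS1, an antisense gene over 13.4% of its exon bases, fell 2.40-fold, and reads of the 2 genes may be mixed. TNFRSF9, an activation-induced co-stimulatory receptor of T cells, fell 1.68-fold, from 0.914, 0.976 and 0.923 RPKM to 0.605, 0.531 and 0.547 RPKM (edgeR adjusted p = 1.84e-06). CD40, which on antigen-presenting cells receives help from T cells, fell 1.25-fold, from 16.8, 15.8 and 15.7 RPKM to 12.9, 12.6 and 13.2 RPKM (edgeR adjusted p = 1.38e-06).

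The other 3 that fell were under 0.4 RPKM in every library. TNFRSF13C, the BAFF receptor, had 139, 192 and 129 reads in DOX-negative and 53, 69 and 54 reads in DOX-positive libraries, a 2.7-fold fall (edgeR adjusted p = 2.23e-06). TNFRSF19, also called TROY, had 38, 49 and 41 reads and then 18, 25 and 22 reads (log2 fold change -1.04, SE 0.30, edgeR adjusted p = 0.00828). TNFRSF18, also called GITR, had 36, 26 and 23 reads and then 8, 14 and 6 reads (log2 fold change -1.70, SE 0.43, edgeR adjusted p = 0.00291), and it passed the read filter through the DOX-negative libraries. TNFRSF1B, the receptor that binds membrane-bound TNF, did not pass, at 6.28 ± 0.234 and 6.57 ± 0.364 RPKM (log2 fold change 0.064, interval -0.036 to 0.16).

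Of the 43 members, 13 were not tested. The ligand TNF itself had 0 to 4 reads per library. CD40LG, TNFRSF13B and TNFRSF6B had 0 reads in all 6 libraries. For the first pair this allows at most 3 reads, by counting error alone and if each read is a separate fragment. On library totals without TMM scaling that is 0.0199 to 0.0342 CPM, depending on the library. If both reads of a fragment were counted, the limit would be higher. FASLG, TNFSF8, TNFRSF8 and TNFRSF17 had at most 6 reads in any library, TNFSF18 and TNFSF11 at most 4, and TNFRSF4 at most 2. TNFSF14, which encodes LIGHT, had 7, 11 and 6 reads in DOX-negative and 4, 2 and 0 reads in DOX-positive libraries. CD27 had 3 to 12 reads, with 10 or more in 3 libraries, but did not pass the filter of the test, and other genes cover 39.1% of its exon bases.

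Set side by side, ligand and receptor of a pair often differed in their values. TRAIL fell while 3 of its 4 membrane receptors rose. TWEAK did not pass while its receptor TNFRSF12A rose 1.61-fold, and TNFSF9 did not pass while TNFRSF9 fell 1.68-fold. TL1A rose 1.65-fold while TNFRSF25 did not pass. BAFF and its receptor TNFRSF13C fell 2.86-fold and 2.7-fold. FAS and TNFRSF11A rose and CD40 fell while their ligands FASLG, TNFSF11 and CD40LG had at most 6 reads in any library. TNF was at 0 to 4 reads while both of its receptors were read at 6 RPKM or more. The differences between the changes of a ligand and its receptor were not tested.

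Several members are neighbours in the genome. Of the chromosome 8 TRAIL receptors, TNFRSF10A, TNFRSF10B and TNFRSF10D rose and TNFRSF10C fell. On chromosome 12, between 6328757 and 6451718, TNFRSF1A fell, LTBR rose with an unstable call and CD27 was not tested. On chromosome 19, between 6530999 and 6670588, CD70 fell, TNFSF9 did not pass and TNFSF14 was not tested. On chromosome 6, between 31572054 and 31582522, LTA and LTB did not pass and TNF was not tested. Further apart on chromosome 1, between 1203508 and 12209228, TNFRSF18, TNFRSF14 and TNFRSF9 fell, and TNFRSF25 and TNFRSF1B did not pass. TNFRSF4 and TNFRSF8, in the same span, were not tested.

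Genes that act downstream of the receptors were taken from lists named with earlier results of these data known. Of all genes tested 56.5% changed, 27.6% higher and 28.9% lower, and each list count below stands beside these shares. Library totals alone gave 4689 higher and 9579 lower of all 24695 genes. Whether a list differed from all genes was not tested. Of 11 death signalling genes tested, 7 rose and 3 fell, with a median of 0.16 (log2). Library totals alone gave 4 and 4. CFLAR, which encodes the caspase-8 inhibitor FLIP, rose 1.22-fold from 171.5 ± 0.765 to 208.8 ± 2.01 CPM. MLKL, the executioner of necroptosis, fell 1.3-fold. RIPK3, which activates MLKL, was at 0.0516 CPM or less on average in each group and was not tested. Of 10 TRAF and IAP genes, 5 rose and 2 fell, or 2 and 5 with library totals alone, and the median moved from 0.099 to -0.044. TRAF4 rose 1.53-fold from 44.9 ± 1.92 to 68.8 ± 0.215 CPM and BIRC3, which encodes the ubiquitin ligase cIAP2, rose 1.43-fold. Other-strand genes cover 16.9% of the exon bases of TRAF4. The adaptors TRAF5 and TRAF1 fell 1.33-fold and 1.28-fold.

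The linear ubiquitin assembly complex (LUBAC), which builds ubiquitin chains at TNF receptors, was listed with the enzymes that remove them and their partners. Of these 9 genes 7 rose and 2 fell, beside 27.6% and 28.9% of all genes, with a median of 0.36 (log2). Library totals alone gave 5 and 2. The deubiquitinase CYLD rose 1.68-fold from 94.6 ± 3.44 to 158.7 ± 2.98 CPM, the TNFAIP3 partner TNIP1 rose 1.43-fold, and the LUBAC subunit SHARPIN rose 1.31-fold. TNFAIP3, which encodes a ubiquitin-editing enzyme, had the largest rise of the 9, from 49.5 ± 1.18 to 134.9 ± 3.31 CPM or 2.72-fold (edgeR adjusted p = 4.38e-15). RNF31, the catalytic LUBAC subunit, was named after its value was seen. It fell 2.18-fold from only 0.336 CPM, and other genes cover 34.8% of its exon bases on the same strand, so its value is uncertain.

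Of 9 kinase genes, 2 rose and 4 fell (2 and 6 with library totals alone), beside 27.6% and 28.9% of all genes. MAP3K5, which encodes the stress kinase ASK1, rose 2.0-fold from 27.0 ± 0.900 to 54.0 ± 0.436 CPM, and TAB3 rose 1.34-fold. MAP3K7, which encodes TAK1, the kinase that TAB proteins serve, fell 1.46-fold and TAB1 fell 1.2-fold. Of 9 NF-kappaB subunit and inhibitor genes, 4 rose and 4 fell (4 and 5 with library totals alone). NFKB2 rose 1.41-fold, NFKBIB 1.37-fold and NFKB1 1.26-fold, and the atypical inhibitor BCL3 fell 1.61-fold.

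Of 5 genes for cleavage of ligands and receptors, 1 rose and 3 fell, beside 27.6% and 28.9% of all genes. FURIN, a proprotein convertase, rose 1.3-fold. ADAM17, the protease that sheds TNF and several of its receptors, fell 1.13-fold, and its partners RHBDF2 and RHBDF1 fell 1.56-fold and 1.21-fold. Of 5 tested family members whose symbols the rule did not take, 3 rose and 1 fell (1 and 1 with library totals alone). RELL2 rose 1.76-fold from 2.50 ± 0.338 to 4.41 ± 0.212 CPM. In GENCODE 29 an other-strand gene covers 38.6% of its exon bases, so reads of both may be mixed. For RELL1 that share was 21.5%. RELT and RELL1 rose 1.19-fold and 1.13-fold, calls that were lost with library totals alone (adjusted p = 0.209 and 0.476). EDAR, the ectodysplasin receptor, fell from 12, 24 and 18 reads to 6, 6 and 4 reads, and it passed the read filter only through the DOX-negative libraries.

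**Figure D4:**
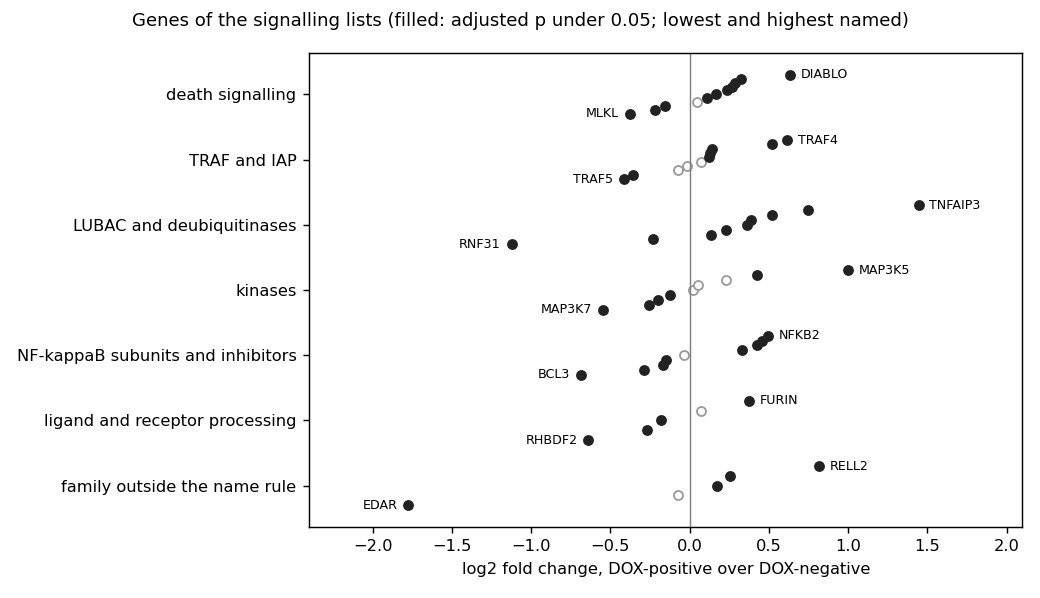
Log2 fold change of DOX-positive over DOX-negative cells for each tested gene of the 7 signalling lists, 1 point per gene, filled where the edgeR adjusted p was under 0.05, with the lowest and highest gene of each list named. TNFAIP3 (1.45) and MAP3K5 (1.0) lie farthest to the right, and EDAR (-1.77) and RNF31 (-1.12), both with few reads, farthest to the left.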

How the data were processed

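RNA from 6 DU-145 cultures was prepared with a stranded kit for polyadenylated RNA, per the labels' protocols. The authors deposited 1 table of whole-number read counts per gene and library, not normalized, with a gene length. The genome build GRCh38.p7 and the tools DESeq2 1.24.0, STAR 2.7.9a and CASAVA 1.8.2 are named, without roles, per the submitters' processing notes. Counting tool, annotation and strand setting: not given in the sources used here. Even counts outnumbered odd ones: of genes with 1 to 20 reads, 34.1% to 37.2% had an odd count in each library, and whether both reads of a fragment were counted is not given in the labels. Dates stood in place of 14 symbols, and 66 genes had none, with 0.000516% of reads. They were replaced from the gene ID where possible, and no member was affected.

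Groups and replicate numbers came from the sample titles. The fit used edgeR 4.0.16 in R 4.3.3, with filterByExpr (minimum count 10, minimum total 15), TMM scaling and group as the only term, and p-values were adjusted over all genes tested. SE is the size of the log2 fold change over the root of F, and intervals are 95%. CPM uses TMM-scaled totals, and RPKM divides it by the deposited length. The labels speak of triplicate cultures only, so the spread behind a p-value is that between these cultures, which may be technical. Floors of 3 reads use library totals without TMM scaling and cover counting error only. Chi-square per degree of freedom was 6.40 to 20.8 between replicates, so none agreed within sampling noise. GENCODE 29 gave positions and exon overlaps, while gene IDs are those of the deposited counts. Its gene models were not always those counted. The deposited length of FAS was 5578 bases against 4253 exon bases in GENCODE 29, and that of RELL1 4214 against 1947. The shares of exon bases covered by other genes may therefore differ in the annotation used for counting. The edgeR step was tested on simulated data in which few genes changed, in random directions. It thus did not cover how calls depend on scaling when many genes change. Members, lists and alternatives were chosen with earlier results of these data known. Every member with 10 or more reads in 3 libraries is described, and up to 4 genes per signalling list with the smallest p. A few genes that this rule or the marker lists would name are not reported here. Alternatives were DESeq2 size factors, library totals alone, no filter, a floor of 1 CPM in 3 libraries, DESeq2 1.42.0 (Wald), a replicate block and leaving out each library. Figures used matplotlib 3.10.9.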

Additional observations from a re-analysis of the deposited data

How the results depend on the processing

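The count of members changed was 22 with DESeq2 size factors, no filter, the DESeq2 Wald test and the replicate block, 24 with library totals alone and 18 with at least 1 CPM in 3 libraries, where 24 members were tested. It was 21 to 23 when each library was left out. All 22 calls were shared with DESeq2 size factors, the Wald test, no filter and the block. LTBR was lost with library totals alone and without DOX-positive replicate 3, and at least 1 CPM in 3 libraries took its adjusted p to 0.0771 (log2 fold change 0.058) and left NGFR, TNFRSF18 and TNFRSF19 untested. Over all genes the count was 11294 (at least 1 CPM) to 14480 (no filter), 12807 to 13413 when each library was left out, and 13503 with the replicate block. Same-numbered libraries did not deviate together (correlations -0.067, -0.025 and 0.0099). With 3 libraries per group this cannot show whether the cultures were set up as pairs, and the labels do not say.

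Direction reversed for LTBR and for members that did not pass. With library totals alone LTBR was -0.049, TNFRSF1B -0.080 and TNFSF4 -0.14. TNFSF12 was 0.022 with DESeq2 size factors, 0.013 with no filter and 0.022 with the Wald test, and TNFSF9 was 0.0082, 0.0001 and 0.0083 in the same order. Leaving out a library took TNFSF12 to between -0.023 and 0.041, TNFSF9 to between -0.048 and 0.017, TNFSF4 to between -0.044 and 0.10, and TNFRSF25 to between -0.29 and 0.073. The cause was not tested. For LTA and LTB, with 12 to 47 and 17 to 46 reads per library, no difference passed with TMM scaling and all 6 libraries. TNFRSF19, with 18 to 49 reads, did pass there.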
